A study of Mus musculus with 15 samples.

Results

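The 36 genes described here make cholesterol and fat in the liver. They were listed by symbol as 20 genes of the sterol branch, of which 17 encode enzymes and 3 encode regulators, and 16 genes of the fatty acid branch. The fatty acid branch held 3 regulators, 5 genes of fatty acid synthesis, 5 of desaturation and elongation and 3 of triglyceride assembly. All 36 were found among the 56953 genes of the count tables, each under 1 identifier, and all 36 passed the filter on low counts that left 17975 genes for testing. The source was mRNA sequencing of primary mouse hepatocytes, the parenchymal cells of the liver, from transgenic mice called ΔEGFR and from wild-type (WT) mice. CCl4, carbon tetrachloride, is a solvent that injures the liver and, given repeatedly, scars it, and mineral oil was its control. There were 4 libraries of ΔEGFR hepatocytes under CCl4, 4 of ΔEGFR under mineral oil, 3 of WT under CCl4 and 4 of WT under mineral oil. The labels used here do not state the strain, age or sex of the mice, the promoter or form of the transgene, the dose and length of the treatment, or whether each library came from its own animal.

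Cholesterol is built from acetyl-CoA through mevalonate, isoprenoids, squalene and lanosterol. The transcription factor SREBP-2, encoded by *Srebf2*, switches these enzymes on when sterol is scarce, and the INSIG proteins hold its precursor in the endoplasmic reticulum when sterol is plentiful. Fatty acids are built from the same acetyl-CoA, under SREBP-1c from *Srebf1*, which follows insulin, and ChREBP from *Mlxipl*, which follows glucose. Their products are desaturated, elongated and esterified into the triglyceride that a hepatocyte stores or secretes.

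Promoter sequences of 4 genes are shown because the results turn on them or because they hold a motif. Those of *Tm7sf2* and *Ebp* belong to the sterol enzymes that fell under CCl4, that of *Hmgcs1* held a sterol regulatory element, and that of *Thrsp* belongs to the gene with the largest estimated fall. Each runs from 250 bases before to 50 bases after the transcription start, 5′ to 3′, and was taken from RefSeq in mouse build GRCm38.p6, which is not the build of the count tables. They lie at chr19:6067801-6068100 (minus strand, *Tm7sf2*), chrX:8193463-8193762 (minus strand, *Ebp*), chr13:119690101-119690400 (plus strand, *Hmgcs1*) and chr7:97417501-97417800 (minus strand, *Thrsp*). Capitals mark 4 motifs searched on both strands, namely the sterol regulatory element TCACNCCAC, the E-box CACGTG, the NF-Y box CCAAT and the GC box GGGCGG, each counted by itself also where motifs overlap.
Tm7sf2: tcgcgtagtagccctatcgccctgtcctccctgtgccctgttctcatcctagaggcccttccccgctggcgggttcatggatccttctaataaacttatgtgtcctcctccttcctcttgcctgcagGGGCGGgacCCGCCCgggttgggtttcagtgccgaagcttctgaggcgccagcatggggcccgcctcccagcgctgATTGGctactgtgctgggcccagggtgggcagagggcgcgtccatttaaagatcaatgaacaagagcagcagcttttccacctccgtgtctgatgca
Ebp: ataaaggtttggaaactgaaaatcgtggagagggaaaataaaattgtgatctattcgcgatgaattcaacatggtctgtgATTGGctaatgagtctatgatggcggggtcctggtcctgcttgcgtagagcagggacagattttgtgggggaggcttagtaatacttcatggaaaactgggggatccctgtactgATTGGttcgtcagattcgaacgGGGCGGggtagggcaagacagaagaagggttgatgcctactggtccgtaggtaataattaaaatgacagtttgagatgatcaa
Hmgcs1: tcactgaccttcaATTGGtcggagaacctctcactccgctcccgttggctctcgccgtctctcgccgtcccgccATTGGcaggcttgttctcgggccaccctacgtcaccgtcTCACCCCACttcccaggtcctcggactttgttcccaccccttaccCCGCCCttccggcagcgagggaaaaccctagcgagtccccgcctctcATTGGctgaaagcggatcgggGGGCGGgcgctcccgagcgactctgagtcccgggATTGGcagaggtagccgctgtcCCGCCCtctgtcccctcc
Thrsp: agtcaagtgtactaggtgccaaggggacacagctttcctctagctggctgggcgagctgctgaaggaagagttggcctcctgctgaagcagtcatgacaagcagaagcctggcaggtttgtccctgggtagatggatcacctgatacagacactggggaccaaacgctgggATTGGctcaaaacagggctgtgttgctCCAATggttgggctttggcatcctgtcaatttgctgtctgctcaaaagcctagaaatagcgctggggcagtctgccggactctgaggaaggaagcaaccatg

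Promoter sequence was at hand for 29 of the 36 genes, 17 of the sterol and 12 of the fatty acid branch. *Fdft1*, *Fdps*, *Sqle*, *Scd1*, *Fads1*, *Dgat1* and *Dgat2* had no entry. The NF-Y box was in a promoter of all 17 sterol genes and of 9 of the 12 fatty acid genes, while 37.4% of all 32851 mouse promoters in the table held it. For the GC box the counts were 16 of 17 sterol genes and 6 of 12 fatty acid genes, beside 35.7% of all promoters. The E-box was found in *Dhcr7*, *Hsd17b7*, *Insig1* and *Sc5d* of the sterol branch and in *Elovl5* and *Mlxipl* of the fatty acid branch, beside 7.15% of all promoters. The sterol regulatory element as spelled here was in *Hmgcs1* and in *Mlxipl* alone, beside 1.24% of all promoters. A gene with more than 1 promoter in the table was counted when any of them held the motif, whereas the shares of all promoters count each promoter. Counted by promoter, the NF-Y box was in 17 of 22 sterol and 10 of 17 fatty acid promoters. The GC box was in 18 of 22 and 7 of 17, the E-box in 4 of 22 and 2 of 17. These matches describe the letters in the window and say nothing of binding.

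Library totals were 51732147 to 61888332 counts in 6 libraries and 96174050 to 155388787 counts in the other 9. The 6 were WT mineral oil replicates 2, 3 and 4, WT CCl4 replicates 1 and 2 and ΔEGFR CCl4 replicate 3. Depth was thus not balanced over the groups, and all 4 ΔEGFR mineral oil libraries were deep. WT mineral oil replicate 1 and WT CCl4 replicate 3 were the only deep libraries of their groups. Each of the 36 genes had at least 731 counts in every library, so counting error was small beside the spread between libraries. All 10 hepatocyte markers were detected in every group. Summed over 54 markers of macrophages, stellate, endothelial, bile duct and blood immune cells, with levels in CPM, counts scaled to library size, the sums were 4747 to 9048 CPM in ΔEGFR CCl4, 235 to 2062 in ΔEGFR mineral oil, 4189 to 10153 in WT CCl4 and 285 to 5721 in WT mineral oil, and none of the markers was at 0 in a whole group. The high value in mineral oil was WT replicate 1, whose mean log2 CPM over these markers was 4.61, beside 0.09 to 3.49 in the other mineral oil libraries and 3.84 to 4.67 in the CCl4 libraries. Mouse *Egfr* had 108 to 269 CPM in ΔEGFR CCl4 and 202 to 361 CPM in WT CCl4, and 492 to 1707 CPM in ΔEGFR mineral oil and 720 to 1513 CPM in WT mineral oil. It is no check of the transgene, because the labels do not say whether the transgene is counted under it.

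Between genes, levels are compared in TPM, the authors' abundance scale that takes transcript length into account. *Scd1*, the desaturase that makes oleate from stearate, stood far above the rest with a mean over the 15 libraries of 2065 TPM. Next came *Fdps*, the farnesyl diphosphate synthase, at 368 TPM, *Thrsp*, the thyroid-hormone-responsive Spot 14 protein of lipogenesis, at 291 TPM, and *Dgat2*, a diacylglycerol acyltransferase, at 247 TPM. *Acacb*, the mitochondrial form of acetyl-CoA carboxylase, at 17 TPM, and *Dgat1*, the other diacylglycerol acyltransferase, at 16.1 TPM closed the order. *Scd1* and *Dgat1* thus mark the ends of a wide range of levels, with all 36 genes detected in every library. The regulators other than *Thrsp* had 191 TPM for *Insig1*, 156 TPM for *Srebf1*, 132 TPM for *Insig2*, 93 TPM for *Mlxipl* and 31.1 TPM for *Srebf2*.

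CCl4 against mineral oil, averaged over the 2 genotypes, lowered 7 of the 36 genes and raised none. The 7 were the sterol enzymes *Tm7sf2* and *Ebp*, the lipogenic regulators *Mlxipl* and *Thrsp*, the carboxylase *Acacb*, and both diacylglycerol acyltransferases, *Dgat1* and *Dgat2*. They make up 19.4% of the list, beside 27.1% of all 17975 genes called in either direction and 15.1% called lower, so the share that fell was near the background of the whole transcriptome. A call is an adjusted p under 0.05 by edgeR's quasi-likelihood test with Benjamini-Hochberg adjustment over all genes, and fold changes are log2 of CCl4 over mineral oil with their standard error. Of the 36 genes, 29 (80.6%) had a negative fold change, beside 51.4% of all genes, with a median of −0.31 over the sterol branch and −0.47 over the fatty acid branch, beside −0.02 over all genes. These changes are relative to TMM, edgeR's scaling between libraries: with library totals alone the median of all genes moved to 0.43, and the branch medians were 0.14 for sterol and −0.03 for fatty acid genes. Of all calls 44.2% were higher with TMM and 86.7% with library totals alone. In bulk RNA, fewer hepatocytes in a sample and less RNA per hepatocyte cannot be told apart. In this comparison 18 of 53 tested markers of other cells rose while none fell (median 1.09), and 6 of 10 hepatocyte markers fell (median −0.69). The 18 were 10 of 12 macrophage, 4 of 7 bile duct, 3 of 10 stellate and 1 of 10 endothelial markers. None of 8 lymphocyte and 6 neutrophil markers was called, and all 6 neutrophil markers had negative values (median −0.68). With the mean level of the other-cell markers as a covariate 2 of the 36 genes (5.56%) were called, *Tm7sf2* and *Dgat1*, beside 5.95% of all genes. The branch medians in that fit were 0.06 for sterol and −0.02 for fatty acid genes, beside −0.04 over all genes. That marker level was 3.84 to 4.67 in CCl4 libraries and 0.09 to 3.49 in mineral oil libraries other than WT replicate 1. It thus nearly followed treatment, and the fit cannot tell the 2 apart. With library totals alone *Tm7sf2*, *Dgat2* and *Thrsp* were called lower and *Mlxipl*, at −0.47 (edgeR adjusted p = 0.0887), *Ebp*, *Acacb* and *Dgat1* were not. With limma on log2(TPM + 1), where the median of all genes was 0.30 and the branch medians were 0.18 for sterol and 0.09 for fatty acid genes, *Tm7sf2* alone of the 36 fell, and *Srebf2*, *Gpam*, *Mvd* and *Lss* were called higher. That limma fit called 41.5% of all genes, 91.8% of them higher. With 1 library left out at a time the count of genes called in the list was lowest at 4, without WT CCl4 replicate 3, and highest at 9, without WT mineral oil replicate 1 or ΔEGFR CCl4 replicate 4. Of all genes 17.8% were called without WT CCl4 replicate 3, 43.9% without WT mineral oil replicate 1 and 24.1% without ΔEGFR CCl4 replicate 4.

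**Figure D1:**
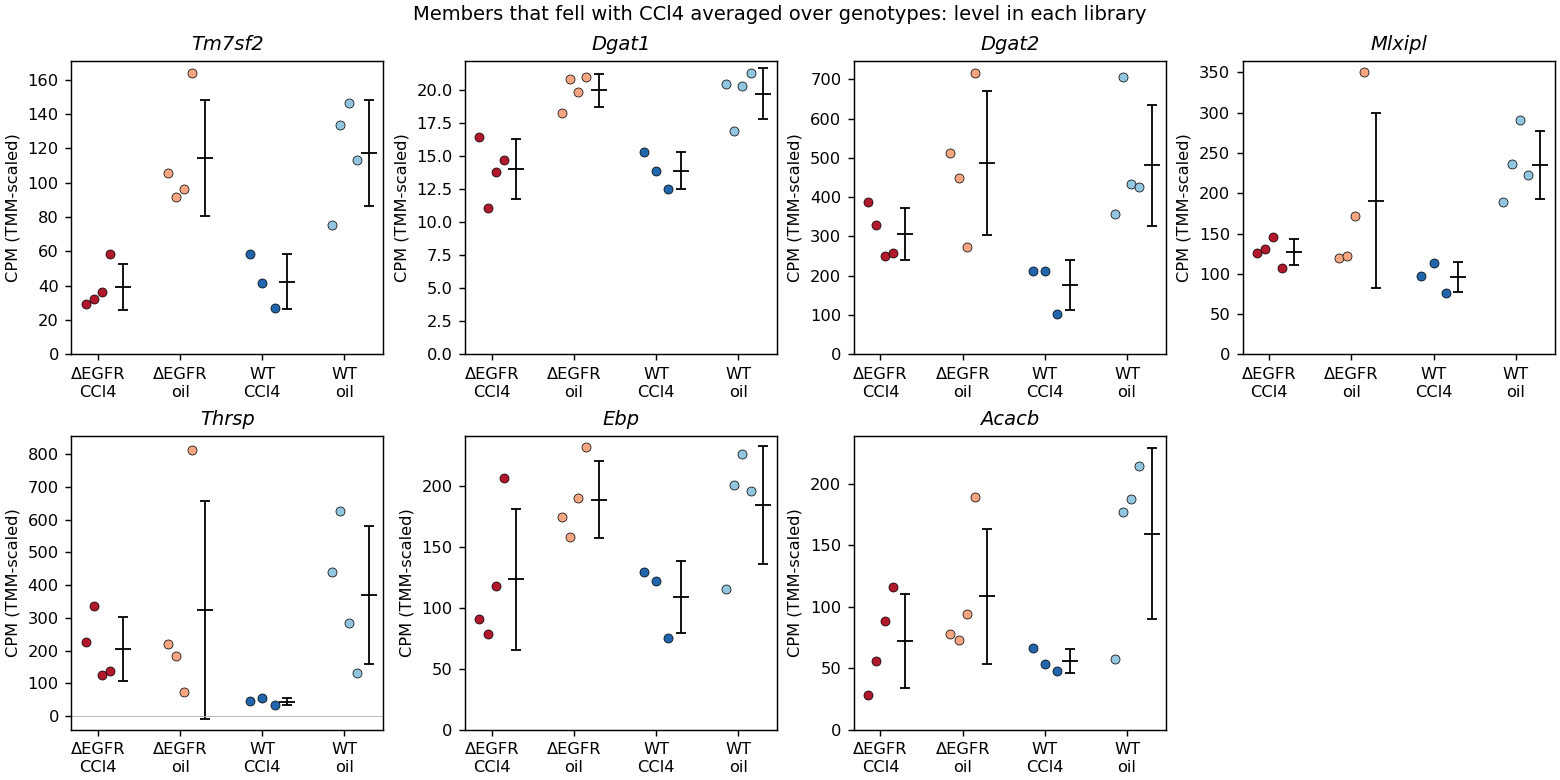
Level of the 7 genes that fell with CCl4 averaged over genotypes, in TMM-scaled CPM, for every library of ΔEGFR CCl4, ΔEGFR mineral oil, WT CCl4 and WT mineral oil. Points are libraries and bars are mean ± SD; all CCl4 libraries lie below all mineral oil libraries for *Tm7sf2* and *Dgat1* only, and for *Thrsp* the bar of ΔEGFR mineral oil reaches below 0 because replicate 4 stands at 814 CPM.

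Within the sterol branch *Tm7sf2*, a reductase that acts on the sterol ring after lanosterol demethylation, had the lowest adjusted p of the 36. *Tm7sf2* had 29.6, 32.6, 36.4 and 58.7 CPM in the ΔEGFR CCl4 libraries, against 106, 91.4, 96.6 and 164 CPM in the ΔEGFR mineral oil libraries. The WT CCl4 libraries had 58.8, 41.9 and 26.8 CPM of it, against 75.5, 133, 147 and 113 CPM in the WT mineral oil libraries. Every CCl4 library was below every mineral oil library, in both genotypes and across them. The fold change was −1.50 ± 0.23, that is 2.83-fold lower (edgeR adjusted p = 0.000816), and it was called under all 9 other settings and without any of the 15 libraries in turn. Only 2 of the 36 genes, *Tm7sf2* and *Dgat1*, separated all 7 CCl4 from all 8 mineral oil libraries, both as lower, beside 2.82% of all genes that were lower in this way.

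*Ebp*, the sterol isomerase a few steps later, fell as well but less steadily. *Ebp* had 90.8, 78.5, 118 and 206 CPM in the ΔEGFR CCl4 libraries, against 175, 158, 190.3 and 232 CPM in the ΔEGFR mineral oil libraries. Its level in WT was 129.7, 122 and 74.8 CPM under CCl4, against 115, 201, 226 and 196 CPM in mineral oil. The groups overlapped in both genotypes, through ΔEGFR CCl4 replicate 4 and WT mineral oil replicate 1. The fold change was −0.69 ± 0.22 (edgeR adjusted p = 0.0373), and the call was lost when any of 12 single libraries was left out, with the adjusted p at 0.127 without WT CCl4 replicate 3.

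The other 18 genes of the sterol branch were not called, with fold changes from −1.06 to 0.29 and adjusted p from 0.0683 to 0.959. Nearest to a call were *Insig2*, a retention protein for the SREBP escort, and *Msmo1*, the sterol methyl oxidase. *Insig2* had 33, 30.4, 86.4 and 76 CPM in the ΔEGFR CCl4 libraries, against 114, 139, 242 and 116 CPM in the ΔEGFR mineral oil libraries. In WT it had 128, 51.4 and 103 CPM under CCl4, against 35.3, 109, 197 and 264 CPM in mineral oil. Its CCl4 libraries lay below the mineral oil ones in ΔEGFR but not in WT, and the fold change averaged over genotypes was −1.06 ± 0.41 (edgeR adjusted p = 0.0683). *Msmo1* had 57.2, 57.4, 71.5 and 115 CPM in the ΔEGFR CCl4 libraries, against 184, 64.5, 85.3 and 193 CPM in the ΔEGFR mineral oil libraries. The WT CCl4 libraries had 145, 71.7 and 51.5 CPM of it, against 159, 239.5, 149 and 93.8 CPM in the WT mineral oil libraries. These ranges overlapped in both genotypes, and the fold change of *Msmo1* was −0.82 ± 0.32 (edgeR adjusted p = 0.0703).

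None of the remaining sterol genes had an adjusted p as low as these. *Hmgcs1*, the synthase that opens the route to mevalonate, averaged 302 ± 199.9 CPM in ΔEGFR CCl4 and 398 ± 150.0 CPM in ΔEGFR mineral oil (SD, n = 4 each). In WT it averaged 461 ± 205 CPM under CCl4 (SD, n = 3) and 411 ± 56.9 CPM in mineral oil (SD, n = 4). Its fold change averaged over genotypes was −0.12 ± 0.32, smaller than its standard error. *Mvk* and *Pmvk*, the mevalonate kinases, stood at −0.28 ± 0.33 and −0.17 ± 0.25, *Fdps* at −0.15 ± 0.34 and *Fdft1*, the squalene synthase, at −0.23 ± 0.26. The master regulator *Srebf2* stood at 0.04 ± 0.12 and the SREBP-responsive *Insig1* at 0.03 ± 0.30. *Lss*, which closes squalene epoxide into lanosterol, and *Mvd*, the mevalonate diphosphate decarboxylase, had positive values of 0.27 ± 0.33 and 0.29 ± 0.29, neither called. *Idi1*, the isopentenyl diphosphate isomerase, stood at −0.73 ± 0.33 (edgeR adjusted p = 0.117), *Sqle*, the squalene epoxidase, at −0.41 ± 0.31, and *Cyp51*, the lanosterol demethylase, at −0.45 ± 0.27, also not called. Among the later enzymes, *Nsdhl*, a dehydrogenase, stood at −0.61 ± 0.30, *Hsd17b7*, a ketoreductase, at −0.55 ± 0.36, *Sc5d*, a desaturase of the sterol ring, at −0.33 ± 0.26 and *Dhcr7*, the reductase of dehydrocholesterol, at −0.21 ± 0.30. All of these later steps had negative values, and apart from *Tm7sf2* and *Ebp* none passed the test.

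In the fatty acid branch 5 of 16 genes fell and none rose, which is 31.25% of the branch beside 27.1% of all genes called and 15.1% called lower. *Dgat1* catalyses the last step of triglyceride synthesis. *Dgat1* had 16.5, 11.1, 13.8 and 14.7 CPM in the ΔEGFR CCl4 libraries, against 18.3, 20.9, 19.9 and 21 CPM in the ΔEGFR mineral oil libraries. Its level in WT was 15.4, 13.9 and 12.5 CPM under CCl4, against 20.4, 16.9, 20.3 and 21.3 CPM in mineral oil. The CCl4 libraries lay below the mineral oil libraries throughout, by a small margin. The fold change was −0.51 ± 0.10 (edgeR adjusted p = 0.00273), but this fall rests on the scaling, since the value was −0.07 with library totals alone, where the median gene stood at 0.43. On the TPM scale *Dgat1* averaged 16.4 ± 2.32 in ΔEGFR CCl4 and 15.6 ± 4.22 in ΔEGFR mineral oil, and 15.8 ± 1.01 in WT CCl4 and 16.5 ± 3.27 in WT mineral oil (SD, n = 4, 4, 3 and 4).

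*Dgat2*, which does the same step for newly made fatty acids in liver, fell by more. *Dgat2* had 389, 329, 251 and 258 CPM in the ΔEGFR CCl4 libraries, against 511, 448, 273 and 715 CPM in the ΔEGFR mineral oil libraries. In WT it had 213, 212 and 102 CPM under CCl4, against 358, 706, 434 and 425 CPM in mineral oil. In WT the groups did not overlap, whereas in ΔEGFR they did through mineral oil replicate 3. Averaged over genotypes the fold change was −1.06 ± 0.24, or 2.09-fold lower (edgeR adjusted p = 0.00656).

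Both regulators of the fatty acid branch other than *Srebf1* fell averaged over genotypes. *Mlxipl* had 126, 131, 146 and 107 CPM in the ΔEGFR CCl4 libraries, against 120.1, 122, 171 and 350.3 CPM in the ΔEGFR mineral oil libraries. The WT CCl4 libraries had 97.3, 114 and 76.7 CPM of it, against 189.5, 236, 291 and 222 CPM in the WT mineral oil libraries. WT libraries separated by treatment for *Mlxipl*, while the ΔEGFR CCl4 libraries lay within the range of the mineral oil libraries apart from replicate 4 at 107 CPM, and ΔEGFR mineral oil replicate 4 was far above its group. The fold change of *Mlxipl* was −0.94 ± 0.22 (edgeR adjusted p = 0.00831). *Thrsp* had 226, 335, 124 and 136 CPM in the ΔEGFR CCl4 libraries, against 221, 184, 72.8 and 814 CPM in the ΔEGFR mineral oil libraries. Its level in WT was 46.5, 53.7 and 32.2 CPM under CCl4, against 439.9, 625, 283 and 130.1 CPM in mineral oil. All 3 WT CCl4 libraries were below all other libraries of the study, and the mineral oil libraries varied widely in both genotypes. The averaged fold change of *Thrsp* was −1.86 ± 0.49, or 3.63-fold lower (edgeR adjusted p = 0.0144), and the adjusted p was 0.0518 without WT CCl4 replicate 3. Without ΔEGFR mineral oil replicate 4 the averaged fold change of *Thrsp* was −1.37 (edgeR adjusted p = 0.0226). That of *Mlxipl* was then −0.71 (edgeR adjusted p = 0.00377).

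*Acacb* makes malonyl-CoA at the mitochondrion, where it restrains fatty acid entry for oxidation. *Acacb* had 28.2, 55.4, 88.6 and 116 CPM in the ΔEGFR CCl4 libraries, against 77.5, 72.6, 94 and 189.5 CPM in the ΔEGFR mineral oil libraries. In WT it had 66.4, 53.2 and 47.6 CPM under CCl4, against 57.8, 177, 187 and 215 CPM in mineral oil. The WT groups overlapped only through mineral oil replicate 1, the library rich in other-cell markers, and those of ΔEGFR overlapped broadly. The fold change was −1.05 ± 0.35 (edgeR adjusted p = 0.0386), and leaving out any of 10 libraries ended the call, while without WT mineral oil replicate 1 it was −1.19 (adjusted p = 0.00783).

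The main synthetic enzymes were not called. *Fasn*, the fatty acid synthase, averaged 673 ± 235 CPM in ΔEGFR CCl4 and 643 ± 446 CPM in ΔEGFR mineral oil (SD, n = 4 each), and its fold change averaged over genotypes was 0.12 ± 0.31. In WT it averaged 585 ± 305 CPM under CCl4 (SD, n = 3) and 517 ± 101 CPM in mineral oil (SD, n = 4). The spread within these groups exceeded the differences between them. *Acly*, which supplies cytosolic acetyl-CoA, stood at −0.12 ± 0.27, *Acaca*, the cytosolic carboxylase, at −0.26 ± 0.21, *Me1*, the malic enzyme that supplies NADPH, at −0.18 ± 0.27, and *Srebf1* at 0.01 ± 0.29. The 5 desaturases and elongases, *Scd1*, *Elovl5*, *Elovl6*, *Fads1* and *Fads2*, all had negative values between −0.58 and −0.36, with none called. *Scd1* had 2112, 3994, 4618 and 4584 CPM in the ΔEGFR CCl4 libraries, against 4372, 6012, 6674 and 9068 CPM in the ΔEGFR mineral oil libraries. The WT CCl4 libraries had 6622, 6347 and 6937 CPM of it, against 1958, 5312, 4199.9 and 14096 CPM in the WT mineral oil libraries. *Scd1* varied widely in WT mineral oil, between replicate 1 and replicate 4, and its groups overlapped in both genotypes. The values of the polyunsaturated fatty acid desaturases *Fads1* and *Fads2* were −0.56 ± 0.23 and −0.43 ± 0.27, and those of the elongases *Elovl5* and *Elovl6* were −0.51 ± 0.35 and −0.58 ± 0.33. *Gpam*, which starts glycerolipid assembly, stood at 0.16 ± 0.21. Over the 11 uncalled genes of the branch the adjusted p ran from 0.0948 to 0.991.

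Within ΔEGFR alone CCl4 lowered 2 of the 36 genes (5.56%), *Tm7sf2* and *Dgat1*, beside 4.15% of all genes called and 2.38% called lower. *Tm7sf2* stood at −1.54 ± 0.30 (edgeR adjusted p = 0.0229) and *Dgat1* at −0.51 ± 0.13 (edgeR adjusted p = 0.0463). Next in line were *Insig2* at −1.44 ± 0.55 (edgeR adjusted p = 0.135) and *Dgat2* at −0.67 ± 0.32 (edgeR adjusted p = 0.215), neither called. Every ΔEGFR CCl4 library was below every ΔEGFR mineral oil library for 3 genes, *Tm7sf2*, *Dgat1* and *Insig2*, beside 9.34% of all genes that were lower in this way. Of the 36 genes 32 were negative, 19 of 20 in the sterol branch. No gene was called when ΔEGFR mineral oil replicate 4 or ΔEGFR CCl4 replicate 1, 2 or 3 was left out, and 1 gene was called when the library left out was ΔEGFR CCl4 replicate 4, ΔEGFR mineral oil replicate 1, 2 or 3, WT CCl4 replicate 1, 2 or 3 or WT mineral oil replicate 4. Without WT mineral oil replicate 1 the count was 3, beside 12.1% of all genes called. In the fits with none of the 36 called, 0.415% to 0.714% of all genes were. In the fits with 1 of the 36 called, 1.01% to 5.43% of all genes were. In ΔEGFR 2 of 53 tested other-cell markers rose (median 1.18), both of macrophages, and 1 of 10 hepatocyte markers fell (median −0.74). With the other-cell level as a covariate both calls ended, with *Tm7sf2* at −1.09 (edgeR adjusted p = 0.131) and *Dgat1* at −0.50 (adjusted p = 0.225), while calls over all genes dropped to 0.195%. The branch medians in that fit were −0.12 for sterol and 0.13 for fatty acid genes, beside −0.36 and −0.43 without the covariate.

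Within WT alone 5 of the 36 genes (13.9%) fell, *Tm7sf2*, *Dgat2*, *Thrsp*, *Mlxipl* and *Dgat1*, beside 12.5% of all genes called and 7.2% called lower. *Thrsp* fell furthest, with −3.06 ± 0.77 or 8.37-fold lower (edgeR adjusted p = 0.0237). *Tm7sf2* stood at −1.46 ± 0.34, *Dgat2* at −1.45 ± 0.36, *Mlxipl* at −1.29 ± 0.33 and *Dgat1* at −0.50 ± 0.14, with edgeR adjusted p from 0.0161 to 0.0368. Not called were *Acacb* at −1.51 ± 0.52 (edgeR adjusted p = 0.0735) and *Ebp* at −0.76 ± 0.33 (edgeR adjusted p = 0.149). Every WT CCl4 library lay below every WT mineral oil library for 6 genes, the 5 called and the elongase *Elovl6*, beside 11.9% of all genes that did so. The count changed with the library left out, as did the share of all genes called. It was 0 without WT CCl4 replicate 2 or 3, beside 4.83% and 3.12% of all genes. It was 2 without WT CCl4 replicate 1 (8.43% of all genes) or WT mineral oil replicate 2 (5.66%). It was 3 without WT mineral oil replicate 3 (5.76%) and 7 without WT mineral oil replicate 1 (28.7%). None of the 36 genes passed the test as higher in either genotype. In WT 7 of 53 tested other-cell markers rose (median 0.57) and 3 of 10 hepatocyte markers fell (median −0.68). The 7 were 3 macrophage, 2 stellate and 2 bile duct markers, while all 6 neutrophil markers had negative values, none called. With the other-cell level, which nearly followed treatment, as a covariate all 5 calls ended, with edgeR adjusted p from 0.0678 for *Thrsp* to 0.119 for *Dgat1*, and calls over all genes dropped to 3.78%. The fold changes in that fit were −2.59 for *Thrsp*, −1.08 for *Dgat2*, −0.98 for *Tm7sf2*, −0.82 for *Mlxipl* and −0.49 for *Dgat1*. Its branch medians were 0.09 for sterol and −0.09 for fatty acid genes, beside −0.29 and −0.43 without the covariate.

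**Figure D2:**
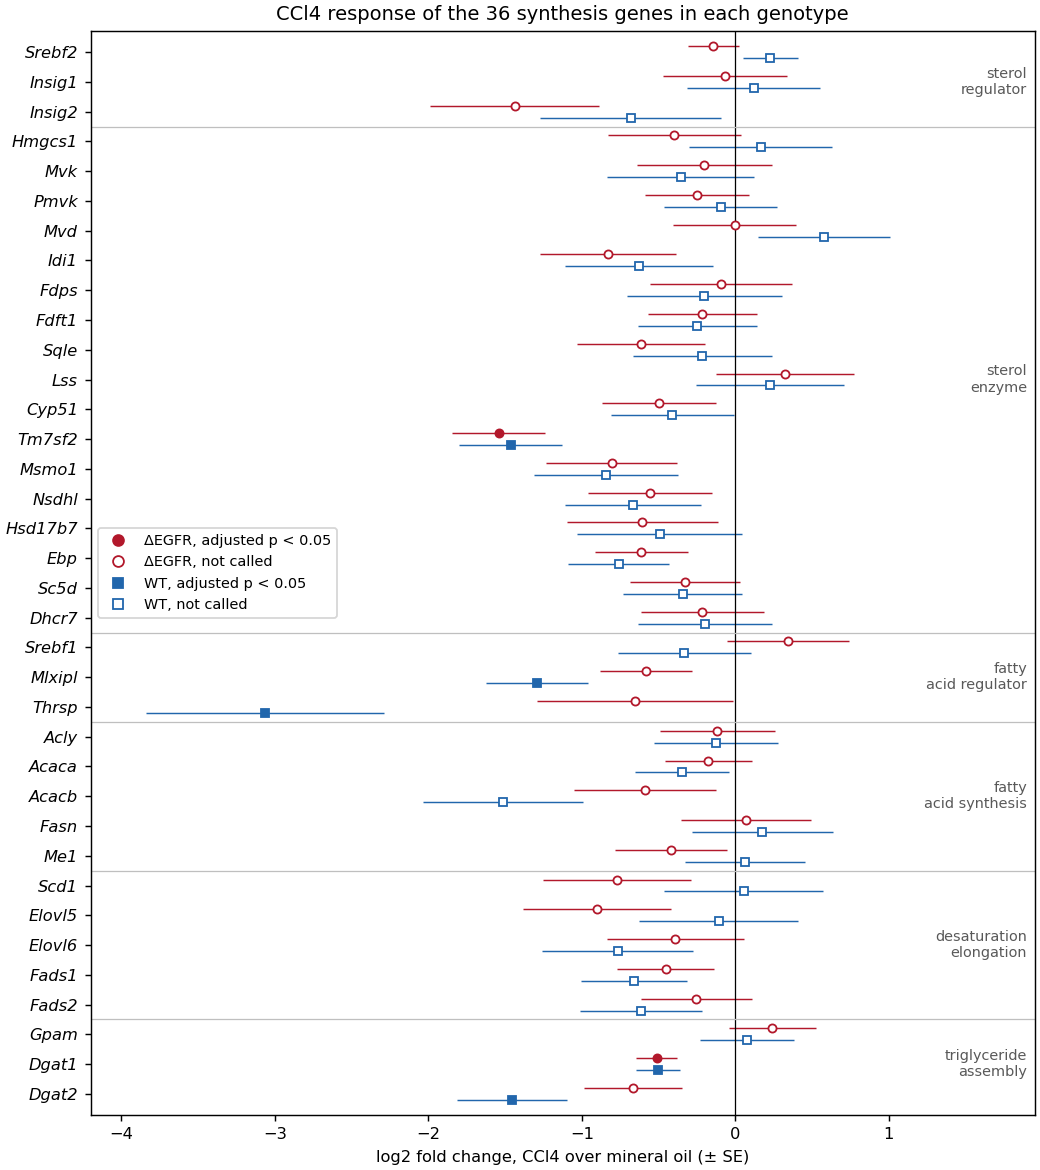
Fold change of CCl4 over mineral oil (log2 ± SE) of the 36 genes, circles for ΔEGFR and squares for WT, grouped by role, with filled symbols for an edgeR adjusted p under 0.05. The filled symbols are *Tm7sf2* and *Dgat1* in ΔEGFR and *Tm7sf2*, *Mlxipl*, *Thrsp*, *Dgat1* and *Dgat2* in WT, all left of 0.

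Genes around both pathways moved in both directions under CCl4. Of 41 further genes of sterol and fatty acid metabolism, 13 fell and 5 rose averaged over genotypes, 6 and 1 of 17 on the sterol side and 7 and 4 of 24 on the fatty acid side. Called genes made up 43.9% of the 41, beside 27.1% of all genes. The lowest adjusted p were those of *Abcg5*, a subunit of the canalicular sterol exporter, at −1.58 ± 0.25 (edgeR adjusted p = 0.00109), *Scap*, the escort of the SREBP precursors, at −0.93 ± 0.16 (adjusted p = 0.00152), and *Gpat4*, a glycerolphosphate acyltransferase, at −0.94 ± 0.17 (adjusted p = 0.00202). *Scap* fell, while *Srebf2* and *Srebf1*, whose products it carries, did not pass the test. In ΔEGFR 2 of the 41 (4.88%, beside 4.15% of all genes called) fell and none rose, *Abcg5* at −1.54 ± 0.34 (edgeR adjusted p = 0.0314) and its partner *Abcg8* at −1.74 ± 0.43 (adjusted p = 0.0418). In WT 6 fell and 1 rose (17.1% of the 41, beside 12.5% of all genes called), led by *Gpat4* at −1.21 ± 0.25 (edgeR adjusted p = 0.0115), *Scap* at −1.09 ± 0.24 (adjusted p = 0.0132) and *Abcg5* at −1.62 ± 0.37 (adjusted p = 0.0168). With the other-cell level as a covariate 3 of the 41 were called averaged over genotypes, all lower, and none of the calls within a single genotype was kept. The balance of falls and rises also rests on the scaling. Averaged over genotypes, 14 rose and 7 fell with library totals alone, beside 36.9% of all genes called. With limma on log2(TPM + 1) 14 rose and 4 fell, beside 41.5%. In WT none of 40 tested was called with the compared groups alone, beside 3.33% of all genes.

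The sterol genes of a library tended to be high or low together. In ΔEGFR CCl4, replicate 4 was the highest of its group for 19 of 20 sterol genes, although it was highest for 25.4% of all genes. ΔEGFR mineral oil replicate 4 was highest for 16 of 20 sterol and all 16 fatty acid genes (27.4% of all genes), and replicate 2 of that group was lowest for 17 of 20 sterol genes (16.8%). Among WT CCl4 libraries replicate 1 was highest for all 20 sterol genes (37.6%) and replicate 3 lowest for 18 of 20 (31.7%). In WT mineral oil replicate 1 was lowest for 13 of 20 sterol and 13 of 16 fatty acid genes (40.1%). Libraries of 1 group differed in the level of the whole sterol branch, so its genes are not independent of each other.

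The mean log2 CPM over the 20 sterol genes was 6.36 ± 0.60 in ΔEGFR CCl4 and 6.84 ± 0.51 in ΔEGFR mineral oil, and 6.59 ± 0.58 in WT CCl4 and 6.93 ± 0.30 in WT mineral oil (SD, n = 4, 4, 3 and 4). The libraries ran from 5.89 to 7.19 in ΔEGFR CCl4 against 6.19 to 7.38 in ΔEGFR mineral oil, and from 6.06 to 7.21 in WT CCl4 against 6.65 to 7.22 in WT mineral oil, so the treatments overlapped in both genotypes. Over the 16 fatty acid genes the mean was 7.70 ± 0.26 in ΔEGFR CCl4 and 8.01 ± 0.57 in ΔEGFR mineral oil, and 7.42 ± 0.28 in WT CCl4 and 8.02 ± 0.31 in WT mineral oil (SD, n = 4, 4, 3 and 4). Here too the ranges overlapped, in WT only because mineral oil replicate 1 at 7.58 lay below CCl4 replicate 1 at 7.63. The sterol mean minus the fatty acid mean was −1.34 ± 0.43 in ΔEGFR CCl4 and −0.83 ± 0.36 in WT CCl4, and −1.17 ± 0.46 in ΔEGFR mineral oil and −1.08 ± 0.33 in WT mineral oil, differences of the size of the spread between libraries. No test was made of these means, since the genes were listed with earlier results known.

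**Figure D3:**
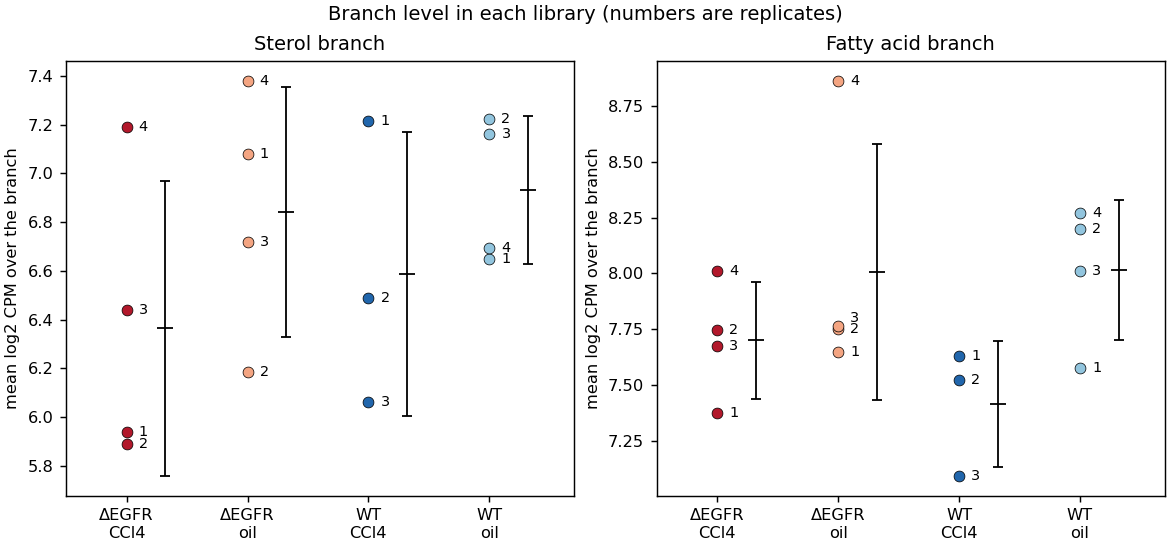
Mean log2 CPM over the 20 sterol genes (left) and the 16 fatty acid genes (right) in each library, numbered by replicate, for ΔEGFR CCl4, ΔEGFR mineral oil, WT CCl4 and WT mineral oil, with mean ± SD beside the points. The sterol means of the CCl4 groups run from 5.89 to 7.21 and those of the mineral oil groups from 6.19 to 7.38, and ΔEGFR mineral oil replicate 4 at 8.86 is the highest fatty acid mean.

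The genotype comparison asked whether ΔEGFR hepatocytes differed from WT hepatocytes in these genes. Under CCl4 none of the 36 genes was called, and none of the 17975 genes was (0% by edgeR, with 411 genes at an unadjusted p under 0.05, 2 of them in this list). DESeq2 called 2 genes and limma on log2 TPM none in the whole table, none of them in the list. *Thrsp* had the smallest p, at 2.22 ± 0.74 for ΔEGFR over WT (edgeR adjusted p = 1), with 226, 335, 124 and 136 CPM in ΔEGFR CCl4 against 46.5, 53.7 and 32.2 CPM in WT CCl4. *Dgat2* came next at 0.80 ± 0.35 (edgeR adjusted p = 1), with 389, 329, 251 and 258 CPM in ΔEGFR CCl4 against 213, 212 and 102 CPM in WT CCl4. Neither gene's groups overlapped, yet neither passed the correction.

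*Scd1* was the third gene without overlap under CCl4, with every ΔEGFR library below every WT library. Its fold change was −0.79 ± 0.51 (edgeR adjusted p = 1), with the values given above. These 3 of 36 genes compare with 5.04% of all genes whose groups did not overlap in either direction. By sign, 16 of 20 sterol genes were negative and 13 of 16 fatty acid genes positive, with medians of −0.21 and 0.29 beside −0.01 over all genes, but with 1 library left out at a time the sterol median ran from −0.56 to 0.21. *Srebf1* was among the positive ones at 0.81 ± 0.44, and *Hmgcs1* among the negative ones at −0.61 ± 0.46, neither called.

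In mineral oil the fold changes of ΔEGFR over WT ran from −0.55 to 0.44 over the 36 genes. None of the 36 genes was called, and none of all genes (0% by edgeR, DESeq2 and limma, with 1197 genes but none of the 36 at an unadjusted edgeR p under 0.05). The lowest adjusted p were those of *Me1* at 0.44 ± 0.36 and *Acacb* at −0.55 ± 0.46, both with an edgeR adjusted p of 0.749. *Thrsp* stood at −0.19 ± 0.64 and *Dgat2* at 0.02 ± 0.32 for ΔEGFR over WT.

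The interaction asks whether the response to CCl4 itself differed, as the log2 fold change in ΔEGFR minus that in WT. No gene was called, in the list or among all genes (0% by edgeR, with 568 genes at an unadjusted p under 0.05, 1 of them in the list). DESeq2 called 2 genes and limma 1 in the whole table, none of them in the list. *Thrsp* had the smallest p, with a value of 2.41 ± 0.96 (edgeR adjusted p = 1), and next by p came *Dgat2* at 0.79 ± 0.47. The difference between 5 genes called in WT and 2 in ΔEGFR is therefore not shown as a difference between the genotypes. For *Tm7sf2* the interaction was −0.08 ± 0.44 and for *Dgat1* −0.01 ± 0.19, each smaller than its standard error.

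**Figure D4:**
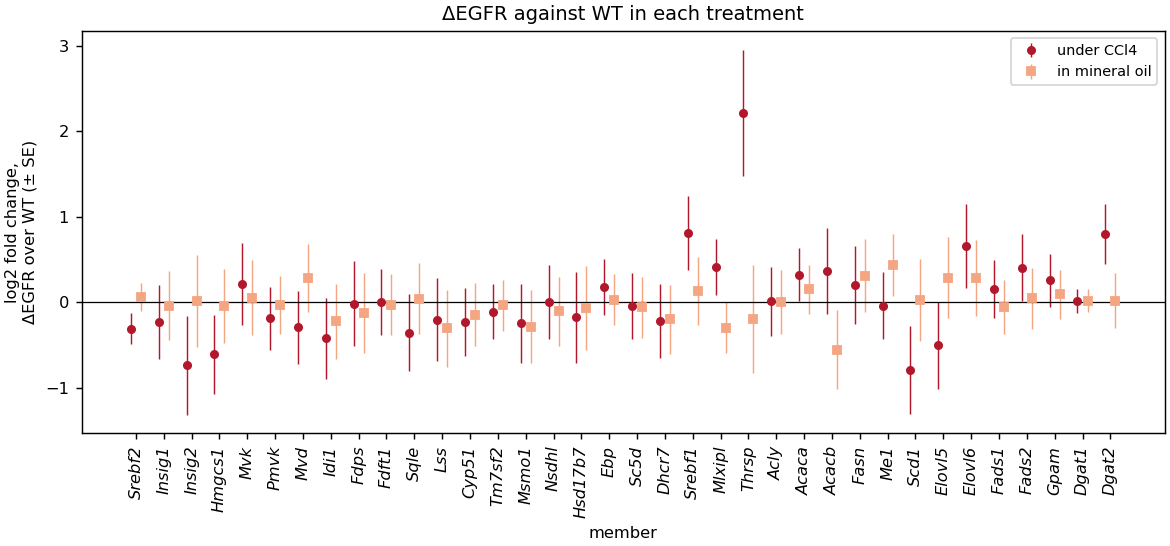
Fold change of ΔEGFR over WT (log2 ± SE) of the 36 genes under CCl4 (circles) and in mineral oil (squares), in order of role. *Thrsp* under CCl4 at 2.22 ± 0.74 is the highest point, *Scd1* under CCl4 at −0.79 ± 0.51 the lowest, and no point passed an edgeR adjusted p under 0.05.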

How the data were processed

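Each library had a gene table from RSEM 1.3.0 with STAR 2.7.8a on GRCm39, per the submitters' processing notes. Which gene annotation was used, and whether strand was, is not given in the sources used here. Expected counts and TPM are the authors' deposited values, per the file headers. Groups came from the labels, and replicate numbers follow deposit order. Gene IDs were paired with symbols by a name table (52029 IDs, 91.4%). The genes, lists and tests were chosen with earlier results of these data known.

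Expected counts were rounded, filtered with filterByExpr (minimum count 10, minimum total 15; 17975 genes), scaled by TMM and fitted over all 15 libraries with 1 mean per group by edgeR 4.0.16's robust quasi-likelihood test in R 4.3.3, with Benjamini-Hochberg adjustment over all genes and calls under 0.05. SE is the fold change divided by the square root of F. CPM are TMM-scaled; log2 CPM use a prior count of 2. What the p-values reflect is how much these libraries varied, which may be partly technical. Reads had no molecular identifiers, so depth limits counting error only.

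All 36 genes could be named: each one called, and the 2 with the lowest adjusted p among those not called; of the further pathway genes, the 3 with the lowest adjusted p in each comparison with a call. The alternatives tried were upper-quartile or RLE factors, library totals alone, DESeq2 1.42.0, 2 other filters, limma 3.58.1 on log2(TPM + 1), the other-cell score or depth class as a covariate, the compared groups alone, and each library left out. The other-cell score is the mean log2 CPM of the 54 markers. The fit was checked on simulated counts. Promoters are from RefSeq (GRCm38.p6), matched by symbol for 29 genes.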

Additional observations from a re-analysis of the deposited data

Results flagged for a closer look

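Of 108 groups of 4 libraries examined, 1 for each gene in each group of that size, 3 had a library far from the others by Dixon's ratio; chance marks about 1 group in 20. *Sqle*, the squalene epoxidase, had 119 CPM in ΔEGFR CCl4 replicate 4, where the other 3 libraries had 64.9 to 69.5 CPM. *Acacb* had 57.8 CPM in WT mineral oil replicate 1, where the others had 177 to 215 CPM. *Fads1*, a fatty acid desaturase, had 388 CPM in that same library, where the others had 633 to 690 CPM.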

How the results depend on the processing

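Averaged over genotypes, the 7 genes called became 2 with the other-cell score, and 4 to 9 with 1 library left out (4 without WT CCl4 replicate 3, where *Thrsp*, *Ebp* and *Acacb* were lost). No scaling factor lost *Mlxipl*, *Dgat1*, *Ebp* and *Acacb*, limma on TPM all but *Tm7sf2*, no low-count filter *Ebp* and *Acacb*, and upper-quartile factors *Ebp*. DESeq2 added *Insig2* and *Msmo1*, and it called 33.4% of all genes, beside 27.1% by edgeR with TMM. In ΔEGFR the 2 became 1 with upper-quartile factors, no scaling factor, no low-count filter, limma on TPM and the compared groups alone, 0 with the other-cell score, and 0 to 3 with 1 library left out. In WT the 5 became 0 with the other-cell score, 3 with the compared groups alone (*Mlxipl*, *Thrsp* and *Elovl6*), and 0 to 7 with 1 library left out. No scaling factor and limma on TPM lost *Mlxipl* and *Dgat1* there, and no low-count filter lost *Dgat1*. In WT DESeq2 kept the 5 and also called *Acacb*, at −1.48 (DESeq2 adjusted p = 0.0251), beside 20.2% of all genes called. The genotype and interaction counts were 0 throughout. *Dgat1* changed sign with limma on TPM, to 0.0274 averaged over genotypes (adjusted p = 0.893) and 0.0945 in ΔEGFR (adjusted p = 0.746). With no scaling factor or limma on TPM, where 86.7% and 91.8% of calls were higher against 44.2% with TMM, *Srebf2* and *Gpam* were called higher. The cause of these shifts was not tested. Over all genes, calls averaged over genotypes were 4876, or 1069 with the other-cell score, 6005 with DESeq2, 7460 with limma and 7810 without WT mineral oil replicate 1. In ΔEGFR they were 746, or 35 with the other-cell score, 470 with no low-count filter, 1180 with no scaling factor, 1286 with the compared groups alone, 1643 with depth class, 2271 with limma and 2410 with DESeq2. In WT they were 2250, or 533 with the compared groups alone, 680 with the other-cell score, 1457 with no low-count filter and 3622 with DESeq2. No paired analysis was possible because replicate numbers follow deposit order and no label links libraries across groups.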
